A study of Mus musculus with 17 samples.

Results

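Met and its ligand Hgf, and the EGF receptor family (Egfr, Erbb2, Erbb3, Erbb4) with 4 of its ligands (Tgfa, Areg, Ereg, Hbegf), were followed across mouse kidneys that express the PRCC-TFE3 fusion. The 10 genes were taken as a list of names, with no threshold on the values, and their transcripts were summed to genes; the whole table gave 35971 genes. Met is the receptor tyrosine kinase for Hgf, a factor made mostly by mesenchymal cells, and the ligands of the EGF receptor family are made as membrane proteins that sheddases release. Ligand binding pairs the receptors and starts signaling through the RAS-ERK and PI3K-AKT routes, whose feedback includes inhibitors that the same signal induces. In the kidney these receptors take part in growth of the tubule, in repair after injury and in magnesium transport, and MET is a known driver gene of papillary kidney cancer.

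RNA was sequenced from whole kidneys of 17 mice in 5 groups. Every mouse carried the lsl-PRCC-TFE3 KI allele, in which a stop cassette at Rosa26 blocks the fusion until Cre removes it, and KSP-Cre (driven by the Cadherin 16 promoter) acts in kidney epithelium, so that other cells of the organ keep the cassette. The 4 Cre(-) mice had no Cre, and replicates 1 and 2 of them also carried HIF1a f/f alleles while replicates 3 and 4 did not. The 3 KI mice carried KSP-Cre with unmodified Hif genes, the 4 Hif1a KO mice added HIF1a f/f, the 3 Hif2a KO mice added HIF2a f/f, and the 3 DKO mice added both floxed pairs. Mice of these genotypes were examined at 8 months of age, while the sample labels give neither age nor sex. By the labels, most groups hold runs of neighbouring library numbers, and an effect of library order cannot be told apart from one of group. The libraries held 16504419 to 24668827 counts (median 18635282). At these depths 3 counts in a library, the floor used here, came to 0.117 to 0.206 CPM (counts relative to library size, on libraries scaled by the TMM method).

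The KO labels were first set against the genes they target, Hif1a for HIF1a and Epas1 for HIF2a. Hif1a stood at 102, 128, 118 and 118 CPM in the Cre(-) libraries, at 228, 232 and 184 CPM in KI, at 163, 193, 189 and 198 CPM in Hif1a KO, at 170.1, 199 and 256 CPM in Hif2a KO and at 188, 174 and 203 CPM in DKO. The Hif1a KO and DKO libraries overlapped the KI libraries, with log2 differences of -0.21 (adjusted p = 0.372) and -0.19 (adjusted p = 0.395). Epas1 stood at 196, 205, 243 and 257 CPM in Cre(-), at 173, 192 and 179 CPM in KI, at 163, 169, 166 and 179 CPM in Hif1a KO, at 146, 149 and 136 CPM in Hif2a KO and at 155, 165 and 158 CPM in DKO. All 3 Hif2a KO libraries and all 3 DKO libraries lay below the lowest KI library, by -0.33 (adjusted p = 0.0788) and -0.18 (adjusted p = 0.208) on the log2 scale. Gene totals from whole kidney count every transcript of a gene, whichever exons it holds, in cells with and without Cre, so they do not check the labels.

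Each comparison was tested with edgeR's quasi-likelihood test in 1 fit of all 17 libraries, with p-values adjusted over the 17011 genes that passed a filter on low counts and a threshold of 0.05. Of the 10 genes 9 passed that filter, and Ereg did not. In KI against Cre(-), 7 of the 9 passed the threshold, beside 60.9% of all genes tested (10362 of 17011). Higher in KI were Hbegf, Tgfa, Areg and Egfr, and lower were Erbb4, Erbb2 and Met, although Erbb2 and Met were slightly higher in KI on the log2(TPM + 1) scale. The TMM factors were 0.793 to 0.833 in Cre(-) and 0.974 to 1.12 in the 13 Cre-positive libraries, and the median log2 fold change of all genes was 0.03 with TMM and 0.38 on log2(TPM + 1). With TMM, 5381 genes were higher and 4981 lower in KI, and on the TPM scale 8843 were higher and 2458 lower. In bulk kidney RNA, a change in the number of cells that express a gene and a change in its RNA per cell cannot be told apart.

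**Figure D1:**
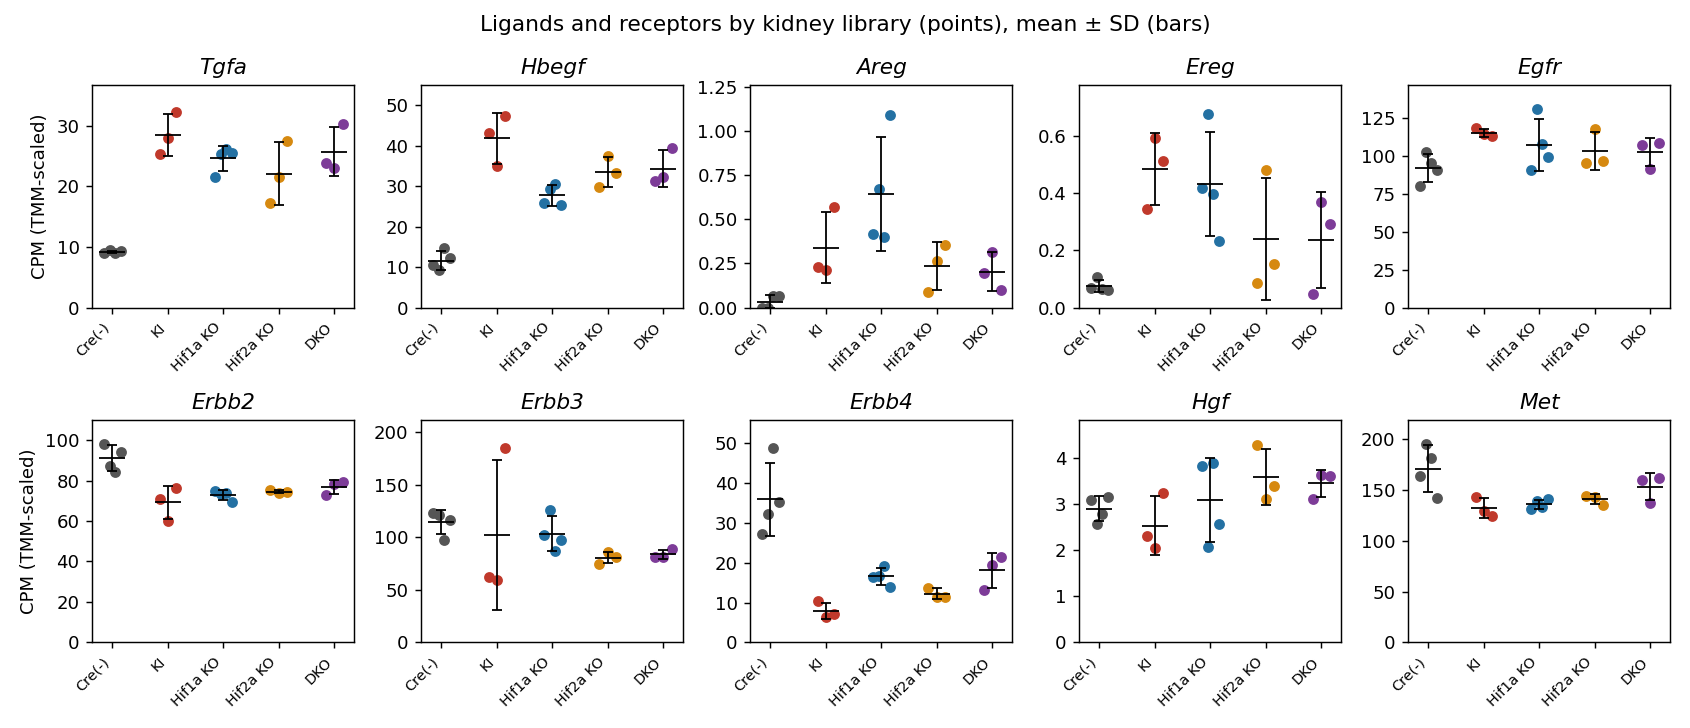
Level of each of the 10 genes in every library (points, CPM on TMM-scaled libraries, vertical axis from 0 in each panel) for the 5 groups, with the group mean and SD as bars. Tgfa and Hbegf were above every Cre(-) library in all 13 Cre-positive libraries and Erbb4 below, KI replicate 3 stood apart for Erbb3, and the lower Met and Erbb2 in KI were slightly higher on the TPM scale.

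Compared per transcript length, as TPM (transcript abundance relative to the library total), Met was the most abundant of the 10 genes in all 5 groups by its mean, and in all single libraries but KI replicate 3. The Met sum includes a short transcript with few counts, Met-206. The long transcript Met-203 alone averaged 29.0 TPM in KI, beside 27.5 TPM for Hbegf. In Cre(-) the order of mean levels (± SD, n = 4) was Met 39.7 ± 5.40 TPM, Erbb3 21.1 ± 2.37, Erbb2 20.8 ± 1.26, Egfr 11.7 ± 1.53, Hbegf 5.67 ± 0.965, Erbb4 3.53 ± 0.755, Tgfa 2.28 ± 0.150 and Hgf 1.06 ± 0.108, with Areg and Ereg at 0.0306 and 0.0224. Of these genes only Erbb3 and Erbb2, and Areg and Ereg, overlapped. In KI the order (± SD, n = 3) was Met 42.6 ± 9.46 TPM, Hbegf 27.5 ± 3.30, Erbb3 25.4 ± 16.2, Erbb2 21.4 ± 1.90, Egfr 20.4 ± 2.43, Tgfa 9.71 ± 0.703, Hgf 1.23 ± 0.258, Erbb4 1.03 ± 0.288, Areg 0.440 ± 0.234 and Ereg 0.180 ± 0.0477. Overlaps were between Hbegf and Erbb3, Erbb3 and Erbb2, Erbb2 and Egfr, Erbb3 and Egfr, and Hgf and Erbb4, and also between Met and Erbb3, since KI replicate 3 had Erbb3 at 44.2 TPM and Met at 32.4 TPM. Hbegf thus moved from rank 5 to rank 2 and Erbb4 from rank 6 to rank 8. In Hif1a KO the mean levels ran from Met (38.3 ± 5.59 TPM) over Erbb3 (25.8 ± 4.56), Erbb2 (23.0 ± 0.595), Hbegf (17.8 ± 1.90), Egfr (17.5 ± 2.83) and Tgfa (8.29 ± 0.935) to Erbb4 (2.24 ± 0.538) and Hgf (1.58 ± 0.462), with overlaps between Met and Erbb3, Erbb3 and Erbb2, Hbegf and Egfr, Erbb4 and Hgf, and Hgf and Areg. In Hif2a KO they ran from Met (51.0 ± 4.34 TPM) over Erbb2 (24.7 ± 0.548), Hbegf (22.8 ± 3.29), Erbb3 (21.3 ± 2.14), Egfr (19.1 ± 3.39) and Tgfa (7.87 ± 2.09) to Hgf (1.96 ± 0.355) and Erbb4 (1.61 ± 0.113), where Erbb2 and Hbegf, Hbegf and Erbb3, Hbegf and Egfr, Erbb3 and Egfr, Hgf and Erbb4, and Areg and Ereg overlapped. In DKO they ran from Met (56.0 ± 6.28 TPM) over Erbb2 (25.7 ± 1.38), Hbegf (23.8 ± 3.56), Erbb3 (22.5 ± 1.62), Egfr (18.2 ± 2.25) and Tgfa (9.34 ± 1.67) to Erbb4 (2.45 ± 0.599) and Hgf (1.86 ± 0.141), where Erbb2 and Hbegf, Erbb2 and Erbb3, Hbegf and Erbb3, Erbb4 and Hgf, and Areg and Ereg overlapped.

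**Figure D2:**
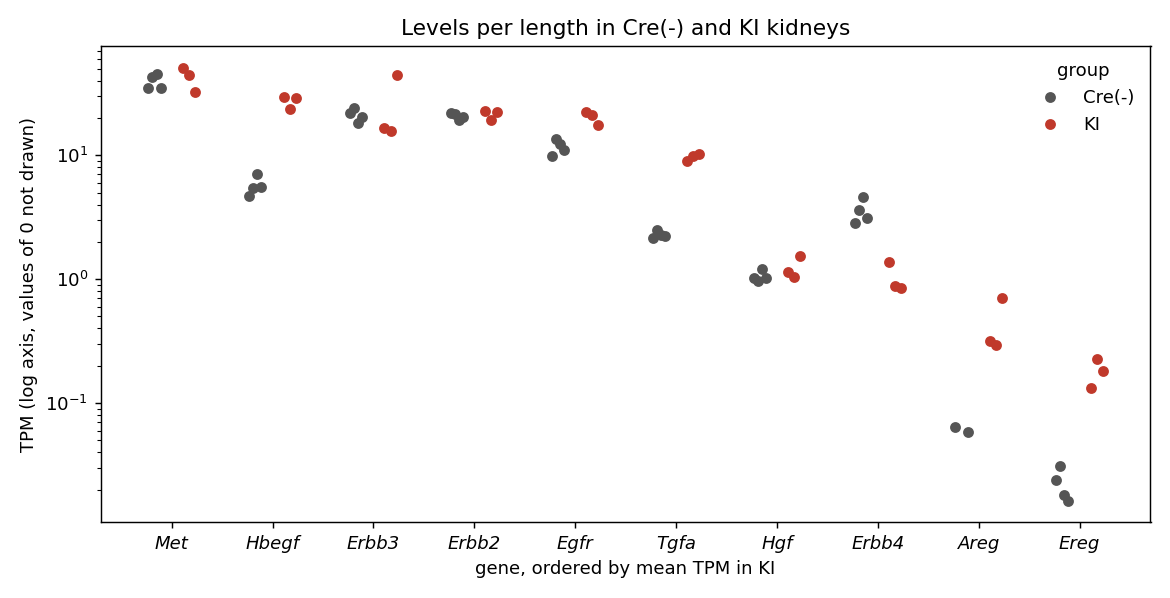
Level of each of the 10 genes in TPM in each Cre(-) and KI library (points, log axis, with 0 not drawn), ordered by the mean in KI. Met had the highest mean in both groups, although Erbb3 was above it in KI replicate 3, and Areg and Ereg the lowest means.

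The promoters of Tgfa, Erbb4, Egfr and Met are shown because the fusion keeps the DNA-binding part of TFE3, whose family binds E-box letters, and because HIF proteins bind the hypoxia response core. Areg and Ereg lie near each other on chromosome 5 of GRCm38 (91139599 to 91148432 and 91074622 to 91093646), Met and Tgfa are both on chromosome 6, and Egfr and Erbb2 are both on chromosome 11. RefSeq gave 300 bases (250 before to 50 after the start, GRCm38.p6) for 8 starts of 7 of the 10 genes. Erbb3, Ereg and Hbegf had no entry. Searched on both strands were the M-box (TCACATGA, TCACGTGA, TCATATGA and TCATGTGA), the E-box CACGTG and the hypoxia response core (ACGTG or GCGTG), and every match is in capitals. An E-box holds ACGTG on both strands, so that it counts as a core match as well. Shown 5′ to 3′ are Tgfa at chr6:86194972-86195271 on the plus strand, Erbb4 at chr1:69108010-69108309 on the minus strand, Egfr at chr11:16751953-16752252 on the plus strand and Met at chr6:17463707-17464006 on the plus strand.
Tgfa: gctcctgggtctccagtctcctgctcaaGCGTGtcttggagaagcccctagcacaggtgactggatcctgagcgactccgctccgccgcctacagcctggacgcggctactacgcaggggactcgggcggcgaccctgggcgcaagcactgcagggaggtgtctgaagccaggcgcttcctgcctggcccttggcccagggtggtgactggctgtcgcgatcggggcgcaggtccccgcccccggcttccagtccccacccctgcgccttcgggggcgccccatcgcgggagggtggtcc
Erbb4: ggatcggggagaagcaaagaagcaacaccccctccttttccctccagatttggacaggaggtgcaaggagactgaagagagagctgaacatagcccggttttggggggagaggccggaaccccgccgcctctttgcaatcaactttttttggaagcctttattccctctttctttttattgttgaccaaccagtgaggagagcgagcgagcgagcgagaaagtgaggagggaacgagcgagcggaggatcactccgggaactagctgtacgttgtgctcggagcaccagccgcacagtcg
Egfr: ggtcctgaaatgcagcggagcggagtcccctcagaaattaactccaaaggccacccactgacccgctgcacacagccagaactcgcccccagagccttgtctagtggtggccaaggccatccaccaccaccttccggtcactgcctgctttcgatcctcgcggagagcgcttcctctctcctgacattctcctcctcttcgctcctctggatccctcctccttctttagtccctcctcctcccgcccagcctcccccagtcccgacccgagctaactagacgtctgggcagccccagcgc
Met: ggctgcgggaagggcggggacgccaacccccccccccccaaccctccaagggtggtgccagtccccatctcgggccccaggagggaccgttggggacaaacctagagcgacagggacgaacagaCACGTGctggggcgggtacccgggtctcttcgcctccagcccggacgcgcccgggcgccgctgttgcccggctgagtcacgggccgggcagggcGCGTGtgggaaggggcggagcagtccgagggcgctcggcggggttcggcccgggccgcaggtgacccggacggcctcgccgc
Met held 1 E-box and Tgfa 1 hypoxia response core (Met had a core outside its E-box as well), while these letters were not in the windows of Erbb4 and Egfr. Of the 8 windows 0 held an M-box, 1 an E-box and 4 a hypoxia response core (Met, Hgf, Erbb2 and Tgfa), where 2.26%, 7.15% and 43.8% of the 32851 promoters in the table held them. A match describes the letters only.

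Hbegf, the heparin-binding ligand of Egfr and Erbb4, stood at 10.4, 9.21, 14.6 and 12.2 CPM in the Cre(-) libraries and at 43.1, 35.0 and 47.3 CPM in the KI libraries. All 3 KI libraries lay far above the highest Cre(-) library. The mean went from 11.6 ± 2.35 CPM (SD, n = 4) to 41.8 ± 6.25 CPM (SD, n = 3). This was a 3.60-fold rise (log2 fold change 1.85, SE 0.15, adjusted p = 6.43e-08). Tgfa, a ligand of Egfr, stood at 8.98, 9.42, 9.00 and 9.28 CPM in Cre(-) and at 25.3, 28.1 and 32.2 CPM in KI. The Cre(-) libraries were nearly alike and no library of either group overlapped with the other. From 9.17 ± 0.216 CPM (SD, n = 4) to 28.5 ± 3.50 CPM (SD, n = 3), Tgfa rose 3.11-fold (log2 fold change 1.64, SE 0.14, adjusted p = 1.4e-07). Both calls held in all 16 alternatives, with log2 fold changes of 1.64 to 2.26 for Hbegf and 1.54 to 2.04 for Tgfa.

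Areg (amphiregulin, a ligand of Egfr) was near the detection limit, with counts of 0, 0, 1 and 1 in Cre(-), 4, 4 and 10 in KI, 7, 13, 8 and 28 in Hif1a KO, 2, 6 and 7 in Hif2a KO and 4, 6 and 2 in DKO. Each Cre(-) library was under the floor of 3 counts, and so were replicate 1 of Hif2a KO and replicate 3 of DKO. Relative to the library totals, KI held 10.8 (95% counting interval 2.59 to 96.0) times the Cre(-) level and Hif1a KO 22.0 (95% counting interval 5.81 to 186) times. The fitted rise in KI passed the threshold (log2 fold change 3.19, SE 0.86, adjusted p = 0.00453), but not with Cre(-) replicates 3 and 4 as the only controls (adjusted p = 0.0544), and over 15 alternatives the adjusted p ran from 0.000825 to 0.0544. Hif1a KO replicate 4 had the most Areg counts of the 17 libraries. Ereg (epiregulin, which binds Egfr and Erbb4) had counts of 1, 2, 1 and 1 in Cre(-), 6, 11 and 9 in KI, 7, 13, 8 and 6 in Hif1a KO, 2, 11 and 3 in Hif2a KO and 1, 7 and 6 in DKO. The KI counts were all above the Cre(-) counts, while Hif2a KO and DKO reached down to them. Relative to the library totals, the KI level was 6.24 (95% counting interval 2.36 to 20.8) times that of Cre(-). With no filter on low counts Ereg had a log2 fold change of 2.55 in KI (SE 0.70, adjusted p = 0.0067). Without KI replicate 3 the filter kept Ereg, and 9 of the 10 genes passed the threshold in KI against Cre(-), beside 9867 of 17299 genes tested. The counting intervals cover counting error only.

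Among the receptors, Erbb4, which binds neuregulins, Hbegf and Ereg, fell most. Its levels were 27.3, 32.2, 48.7 and 35.4 CPM in Cre(-) and 10.3, 6.46 and 7.02 CPM in KI. Every KI library lay below every Cre(-) library. The mean went from 35.9 ± 9.17 CPM (SD, n = 4) to 7.92 ± 2.07 CPM (SD, n = 3), a 4.53-fold fall (log2 fold change -2.18, SE 0.23, adjusted p = 7.58e-07). The call held in all 16 alternatives, with log2 fold changes of -2.41 to -1.15. The value of -1.15 was on log2(TPM + 1). That scale changes the scaling and also adds 1 to mean levels of 3.53 TPM in Cre(-) and 1.03 TPM in KI. Erbb2, which has no known ligand and pairs with the other receptors, stood at 98.2, 87.5, 84.1 and 94.2 CPM in Cre(-) and at 70.8, 60.3 and 76.6 CPM in KI. The groups did not overlap in CPM, whereas in TPM they did, at 21.9, 21.7, 19.3 and 20.2 TPM in Cre(-) and 22.8, 19.2 and 22.2 TPM in KI. Erbb2 was 1.31-fold lower in KI with TMM (log2 fold change -0.39, SE 0.08, adjusted p = 0.000402), and its direction flipped on log2(TPM + 1), to 0.04. Relative to the median of all genes Erbb2 was lower on both scales, by -0.42 with TMM and -0.34 on log2(TPM + 1).

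Egfr, the receptor of Egf, Tgfa, Areg, Ereg and Hbegf, stood at 79.9, 102, 95.3 and 90.5 CPM in Cre(-) and at 118, 114 and 113 CPM in KI. All KI libraries lay above all Cre(-) libraries, by a small margin. Egfr was 1.25-fold higher with TMM (log2 fold change 0.32, SE 0.12, adjusted p = 0.0284). The size depended on the scaling, with 0.75 (adjusted p = 0.000358) on log2(TPM + 1) and 0.26 to 0.80 over 16 alternatives. With TMM the call was lost without Cre(-) replicate 1 (adjusted p = 0.0844), Cre(-) replicate 4 (0.0545), KI replicate 1 (0.073) or KI replicate 2 (0.058). It was lost as well with Cre(-) replicates 1 and 2 as the only controls (0.0798) or with replicates 3 and 4 (0.0808), and the adjusted p over the 16 alternatives ran from 0.000321 to 0.0844. Erbb3, a receptor with little kinase activity of its own that binds neuregulins, stood at 123, 121, 97.7 and 116 CPM in Cre(-) and at 62.5, 59.3 and 185 CPM in KI. KI replicates 1 and 2 lay below all 4 Cre(-) libraries and KI replicate 3 above them, the highest of the 17 libraries. The log2 fold change was -0.16 (SE 0.29, adjusted p = 0.646), and without KI replicate 3 it was -0.91 (adjusted p = 4.13e-05), with an adjusted p of 4.13e-05 to 0.897 over 16 alternatives. The sign turned without KI replicate 1 (0.0954) or KI replicate 2 (0.115) and on log2(TPM + 1) (0.10). KI replicate 3 differed from KI replicates 1 and 2 in other values as well: the summed TPM of 5 injured tubule markers was 449.9, 397 and 812 in KI replicates 1, 2 and 3, and that of 5 urothelium markers was 129, 195 and 23.4. Whether these values bear on Erbb3 was not tested.

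Met stood at 164, 196, 182 and 142 CPM in Cre(-) and at 143, 129.6 and 125 CPM in KI. KI replicate 1 was above Cre(-) replicate 4, so the groups overlapped. Met was 1.29-fold lower in KI with TMM (log2 fold change -0.37, SE 0.10, adjusted p = 0.00414), and its direction flipped on log2(TPM + 1), to 0.09 (adjusted p = 0.633, with 0.000393 to 0.633 over 16 alternatives). In TPM it stood at 35.1, 42.8, 45.7 and 35.1 in Cre(-) and at 51.0, 44.5 and 32.4 in KI. Those values overlapped too, with KI replicate 3 the lowest of the 7 libraries. Relative to the median of all genes Met was lower by -0.40 with TMM and by -0.29 on log2(TPM + 1). Hgf stood at 3.09, 2.57, 2.78 and 3.16 CPM in Cre(-) and at 2.30, 2.05 and 3.25 CPM in KI, and over all 17 libraries at 2.05 to 4.28 CPM. The groups overlapped (log2 fold change -0.19, SE 0.23, adjusted p = 0.494), with a sign that turned on log2(TPM + 1), to 0.11. Hgf did not pass the threshold in the 8 comparisons with TMM scaling, whereas on the TPM scales it passed against Cre(-) in all 3 KO groups.

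The deposited values are estimates for single transcripts, so the makeup of each gene's sum is given as a description. Tgfa rested on Tgfa-201 at 96.7% to 100% of its TPM in every library, and Erbb3, Areg and Ereg each had 1 transcript. Met had a short coding transcript of 470 bases, Met-206, that held 18.9% to 36.2% of the TPM of Met in KI and 20.4% to 38.6% in Cre(-). Of the Met counts it held only 1.4% to 3.3% in KI and 1.5% to 3.6% in Cre(-). Its TPM share thus rests on few counts over a short length. The noncoding Erbb2-202 held 6.76% to 13.4% of the TPM of Erbb2 in KI, 7.15% to 33.9% in Cre(-) and 13.2% to 34.4% in Hif1a KO. In Hif2a KO it held 20.0% to 36.1% and in DKO 18.7% to 34.1%. Erbb4-201 held 21.2% to 100% of the TPM of Erbb4 in KI and 35.1% to 56.2% in Cre(-). Erbb4-201 held 45.6% to 100% in Hif1a KO, 1.05% to 59.0% in Hif2a KO and 38.6% to 85.7% in DKO. The split thus varied widely among the libraries of every Cre-positive group.

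What loss of Hif1a, Hif2a or both did in kidneys with the fusion was asked by comparing each KO group with KI. These 3 comparisons share the KI libraries, so their values are set side by side. In Hif1a KO, 2 of the 9 genes passed the threshold (Erbb4 higher, Hbegf lower), beside 5.44% of all genes tested. For Hif2a KO the edgeR count was 0 of 9, beside 1.39% of all genes. At an unadjusted p under 0.05 it was 2 of 9, beside 3262 of all 17011 genes. By DESeq2 it was 0 of 9, beside 1015 of all genes. In DKO 1 of 9 passed (Erbb4 higher), beside 12.7% of all genes. The count of all genes called in Hif1a KO against KI moved from 925 to 361 without KI replicate 2, 514 without KI replicate 3, 308 without Hif1a KO replicate 1 and 273 without Hif1a KO replicate 3. That for Hif2a KO moved from 236 to 857, 88 and 13 without KI replicates 1, 2 and 3, and to 129, 43 and 79 without Hif2a KO replicates 1, 2 and 3. For DKO it moved from 2164 to 915 without KI replicate 3, 722 without DKO replicate 2 and 790 without DKO replicate 3. The members called in Hif1a KO were Erbb4 alone without KI replicate 1 or Hif1a KO replicates 1, 3 or 4, Hbegf alone without KI replicate 2, and Erbb3 alone without KI replicate 3.

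**Figure D3:**
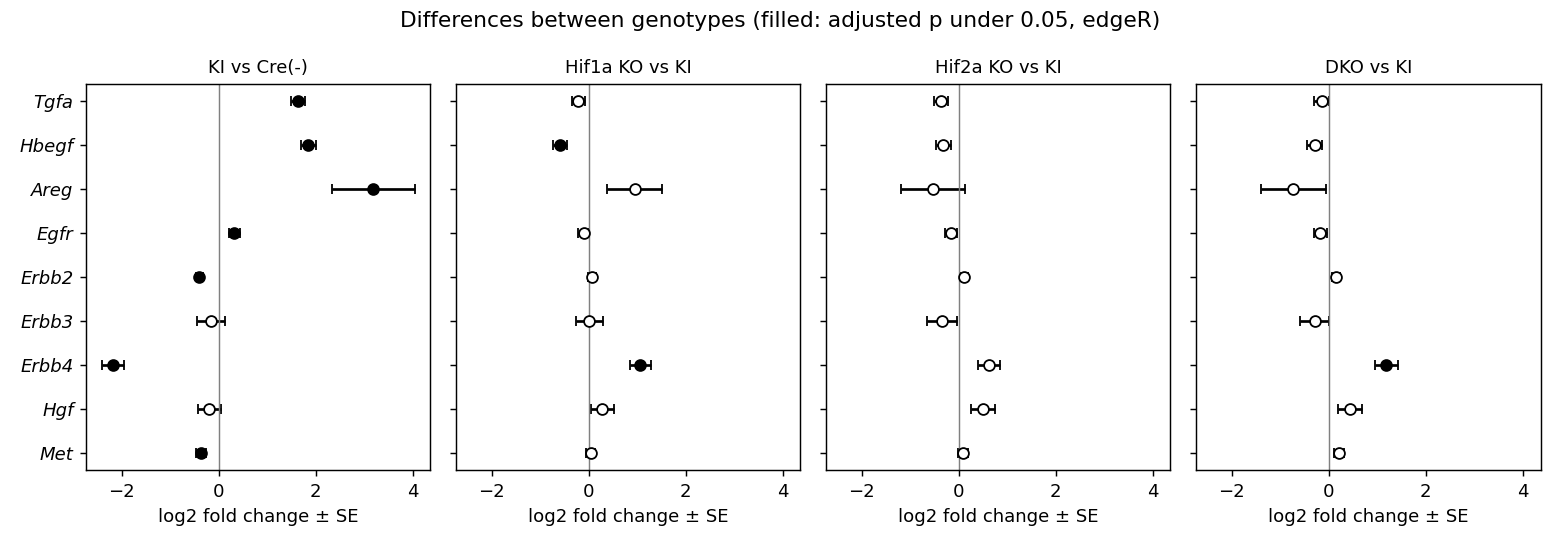
Log2 fold change (TMM scaling, horizontal axis, the same in every panel) of the 9 tested genes in KI against Cre(-) and in each KO group against KI, with bars of 1 SE and filled points for genes past the threshold. Erbb4 was the only filled point in the DKO panel, no point was filled in the Hif2a KO panel, and Met and Erbb2, lower in KI against Cre(-) here, were slightly higher on the TPM scale.

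Erbb4 stood at 16.4, 16.6, 19.2 and 13.9 CPM in Hif1a KO, at 13.7, 11.5 and 11.4 CPM in Hif2a KO and at 13.1, 19.5 and 21.5 CPM in DKO. Every library of the 3 KO groups lay above the highest KI library (10.3 CPM) and below the lowest Cre(-) library (27.3 CPM), whereas in TPM Hif1a KO replicate 3 (3.01 TPM) and DKO replicate 3 (2.96 TPM) were above the lowest Cre(-) library (2.85 TPM). Erbb4 was 2.09-fold higher in Hif1a KO than in KI (log2 fold change 1.06, SE 0.22, adjusted p = 0.0156), and the call was lost without KI replicate 2 (adjusted p = 0.0651) or KI replicate 3 (0.0542), with 0.000249 to 0.0651 over 14 alternatives. In DKO it was 2.28-fold higher (log2 fold change 1.19, SE 0.23, adjusted p = 0.00594), a call kept in all 13 alternatives. The Hif2a KO difference did not pass (log2 fold change 0.63, SE 0.23, adjusted p = 0.162), nor in any of 13 alternatives. Hbegf stood at 25.7, 29.2, 30.6 and 25.2 CPM in Hif1a KO, at 29.8, 37.4 and 33.2 CPM in Hif2a KO and at 31.2, 32.2 and 39.5 CPM in DKO. Only the Hif1a KO libraries were all below the lowest KI library (35.0 CPM), and all KO libraries were above the highest Cre(-) library. Hbegf was 1.51-fold lower in Hif1a KO than in KI (log2 fold change -0.59, SE 0.14, adjusted p = 0.0287). That call was lost without KI replicate 1 (0.069), KI replicate 3 (0.101), or Hif1a KO replicate 1 (0.0761), 3 (0.0518) or 4 (0.0625), and with only the KI and Hif1a KO libraries in the fit (0.0564), the adjusted p running from 0.00289 to 0.101 over 14 alternatives.

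Tgfa stood at 21.5, 25.3, 26.1 and 25.5 CPM in Hif1a KO, at 17.2, 21.6 and 27.5 CPM in Hif2a KO and at 23.9, 23.0 and 30.4 CPM in DKO. These overlapped the KI libraries in each group, with Hif2a KO replicate 1 the lowest. The log2 fold changes against KI were -0.21 (adjusted p = 0.401), -0.37 (adjusted p = 0.193) and -0.15 (adjusted p = 0.548). Erbb3 stood at 103, 126, 86.9 and 97.6 CPM in Hif1a KO, at 74.7, 85.5 and 80.9 CPM in Hif2a KO and at 81.0, 81.0 and 88.6 CPM in DKO. All lay between KI replicates 1 and 2 below and KI replicate 3 above. Against KI its log2 fold changes were 0.02 (adjusted p = 0.981), -0.35 (adjusted p = 0.572) and -0.29 (adjusted p = 0.57), and without KI replicate 3 they were 0.76 (adjusted p = 0.0143), 0.40 (adjusted p = 0.253) and 0.46 (adjusted p = 0.066). Over the alternatives the adjusted p ran from 0.0143 to 1 in Hif1a KO, 0.253 to 0.932 in Hif2a KO and 0.066 to 0.999 in DKO.

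Met stood at 132, 139, 133 and 141 CPM in Hif1a KO, at 144, 143 and 135 CPM in Hif2a KO and at 160.1, 138 and 162 CPM in DKO. Each of these groups overlapped KI, and Hif2a KO replicates 1 and 2 and DKO replicates 1 and 3 were above the highest KI library. The log2 fold changes of Met against KI were 0.04 (adjusted p = 0.855), 0.09 (adjusted p = 0.682) and 0.21 (adjusted p = 0.192), with the Hif1a KO value at -0.14 on log2(TPM + 1). Egfr, Erbb2, Hgf and Areg had log2 fold changes of -0.11, 0.07, 0.28 and 0.95 in Hif1a KO, where all 4 overlapped with KI. In Hif2a KO their values were -0.16, 0.11, 0.50 and -0.53, and in DKO -0.17, 0.15, 0.45 and -0.73. Without KI replicate 3 the Areg value in Hif2a KO turned to 0.0534, and those in Hif1a KO and DKO were 1.53 and -0.14. Without KI replicate 2 the Erbb2 value in Hif1a KO turned to -0.0176. None of the values with all libraries passed the threshold, and in DKO the Egfr libraries lay below all KI libraries.

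Of the KO groups, Hif1a KO and Hif2a KO were compared directly with each other, while DKO was not compared with either. In Hif1a KO against Hif2a KO the edgeR count was 0 of 9, beside 0.429% of all genes. At an unadjusted p under 0.05 it was 1 of 9, beside 2543 of all 17011 genes. By DESeq2 it was 0 of 9, beside 537 of all genes. The 73 genes called in all became 21, 48, 18 and 20 without Hif1a KO replicates 1, 2, 3 and 4, and 193, 1 and 9 without Hif2a KO replicates 1, 2 and 3. The differences were 0.44 (adjusted p = 0.347) for Erbb4, -0.27 (adjusted p = 0.39) for Hbegf and 1.48 (adjusted p = 0.244) for Areg, which was higher in every Hif1a KO library than in every Hif2a KO library in CPM. The interaction asks whether the change with Hif1a loss was the same with and without Hif2a. It passed for 0 of 9 genes by edgeR (0% of all genes tested) and 0 of 9 by DESeq2 (31 of all 17011 genes). At an unadjusted p under 0.05 were 2 of 9, beside 1013 of all genes. The 2 members were Hbegf (log2 0.63, adjusted p = 0.722) and Tgfa (log2 0.43, adjusted p = 0.838).

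Against Cre(-), which all KO groups share as control, 6 of 9 genes passed in Hif1a KO (beside 61.9% of all genes), 6 of 9 in Hif2a KO (beside 61.9%) and 5 of 9 in DKO (beside 58.3%). Hbegf had log2 fold changes of 1.26, 1.53 and 1.57 in Hif1a KO, Hif2a KO and DKO. The corresponding values of Tgfa were 1.42, 1.27 and 1.49. Those of Erbb4 were -1.12, -1.55 and -0.99. All of these passed the threshold, also with any 1 library left out, but Erbb4 in DKO did not on log2(TPM + 0.1) (adjusted p = 0.0594, 1.52e-05 to 0.0594 over 16 alternatives). Erbb2 was lower at -0.32, -0.29 and -0.25 with TMM but higher on log2(TPM + 1), at 0.14 (adjusted p = 0.0823), 0.24 (adjusted p = 0.00904) and 0.29 (adjusted p = 0.00248). It thus passed in opposite directions on the 2 scales in Hif2a KO and DKO. With TMM the DKO call was lost without DKO replicate 1 (0.0667) and with Cre(-) replicates 3 and 4 as the only controls (0.0631). The adjusted p over the alternatives ran from 1.97e-05 to 0.0823, 0.000584 to 0.031 and 0.00239 to 0.0667. Erbb3 did not pass, at -0.15 (adjusted p = 0.652), -0.51 (adjusted p = 0.141) and -0.45 (adjusted p = 0.194), although all its Hif2a KO and DKO libraries lay below all Cre(-) libraries in CPM. With only the compared groups in the fit it passed in Hif2a KO (0.00244) and DKO (0.00251), its sign turned on log2(TPM + 1) in all 3 groups, and the adjusted p ran from 0.321 to 0.922, 0.00244 to 0.959 and 0.00251 to 0.75.

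Met was lower than in Cre(-) at -0.33, -0.28 and -0.16 with TMM in Hif1a KO, Hif2a KO and DKO, while on log2(TPM + 1) it was at -0.05, 0.36 and 0.49. The Hif1a KO call (adjusted p = 0.00498) was lost on log2(TPM + 1) (0.763), on log2(TPM + 0.1) (0.763) and with Cre(-) replicates 3 and 4 as the only controls (0.0557), with 0.000459 to 0.763 over 17 alternatives. The Hif2a KO call (-0.28 (adjusted p = 0.0212)) was lost without Cre(-) replicate 2 (adjusted p = 0.096), Cre(-) replicate 3 (0.0531) or Hif2a KO replicate 3 (0.0787), and with no filter on low counts (0.052), with only the compared groups in the fit (0.0761) and with Cre(-) replicates 3 and 4 as the only controls (0.171). On log2(TPM + 1) Met passed there as higher (0.0472), with 0.00217 to 0.171 over 16 alternatives. In DKO Met did not pass (-0.16 (adjusted p = 0.179)) except without Cre(-) replicate 4 (0.0271) and, with a positive sign, on the TPM scales, with 0.00973 to 0.635 over 16 alternatives. Areg passed in all 3 KO groups, the fitted values resting on 2 counts in the 4 Cre(-) libraries. Its Hif2a KO call (adjusted p = 0.0165) was lost without Hif2a KO replicate 3 (0.0646), on log2(TPM + 1) (0.0608) and with Cre(-) replicates 3 and 4 as the only controls (0.137), with 0.0039 to 0.137 over 15 alternatives. The DKO call of Areg (adjusted p = 0.0297) was lost without Cre(-) replicate 1 (0.0689) or 2 (0.0779) and without DKO replicate 1 (0.0547) or 2 (0.113), and by DESeq2 (0.0523), on log2(TPM + 1) (0.0969) and with Cre(-) replicates 3 and 4 as the only controls (0.202), with 0.00611 to 0.202 over 15 alternatives. Egfr did not pass with TMM, except in Hif1a KO without Hif1a KO replicate 1 (0.0334). On log2(TPM + 1) it passed in all 3 KO groups, at 0.54 (adjusted p = 0.00274) in Hif1a KO, 0.66 (adjusted p = 0.00107) in Hif2a KO and 0.60 (adjusted p = 0.00213) in DKO, where the adjusted p over the alternatives ran from 0.00243 to 0.382, 0.00097 to 0.698 and 0.00192 to 0.56. Hgf passed on the TPM scales only, on log2(TPM + 1) at 0.31 (adjusted p = 0.0408), 0.52 (adjusted p = 0.00324) and 0.47 (adjusted p = 0.00602), beside 0.09, 0.31 and 0.25 with TMM and an adjusted p from 0.0408 to 0.941, 0.00324 to 0.6 and 0.00602 to 0.537 over the alternatives.

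The wider pathway was read from a list of 78 other genes, of which 74 passed the filter on low counts. In KI against Cre(-), 53 of 74 passed the threshold (71.6%, beside 60.9% of all genes tested), 38 higher and 15 lower, and the median log2 fold change of the list was 0.25, beside 0.03 for all genes tested. On log2(TPM + 1), 55 were higher and 5 lower, and 4 genes called with TMM changed sign (Braf, Sos1, Pik3ca and Adam9). By role with TMM, where the same 60.9% of all genes applies, 1 of 5 other EGF family ligands was higher and 2 lower, 2 of 8 genes around Hgf were higher and 3 lower, and 4 of 5 sheddases and their regulators were higher and 1 (Adam9) lower, with Adam9 higher on the TPM scale. Of 25 adaptors and effectors 15 were higher and 3 lower (Braf, Sos1 and Pik3ca, all higher on the TPM scale). The 19 inhibitors of receptor signaling gave 7 higher and 5 lower, and the 12 ERK-responsive genes gave 9 higher and 1 lower with a median of 1.10. On log2(TPM + 1) the corresponding counts were 14 higher and 1 lower for the inhibitors, 23 and 0 for the adaptors and effectors, 4 and 0 for the sheddases and their regulators, 10 and 0 for the ERK-responsive genes, 3 and 2 around Hgf, and 1 and 2 for the other ligands, so that the balance of the inhibitors depended on the scaling.

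**Figure D4:**
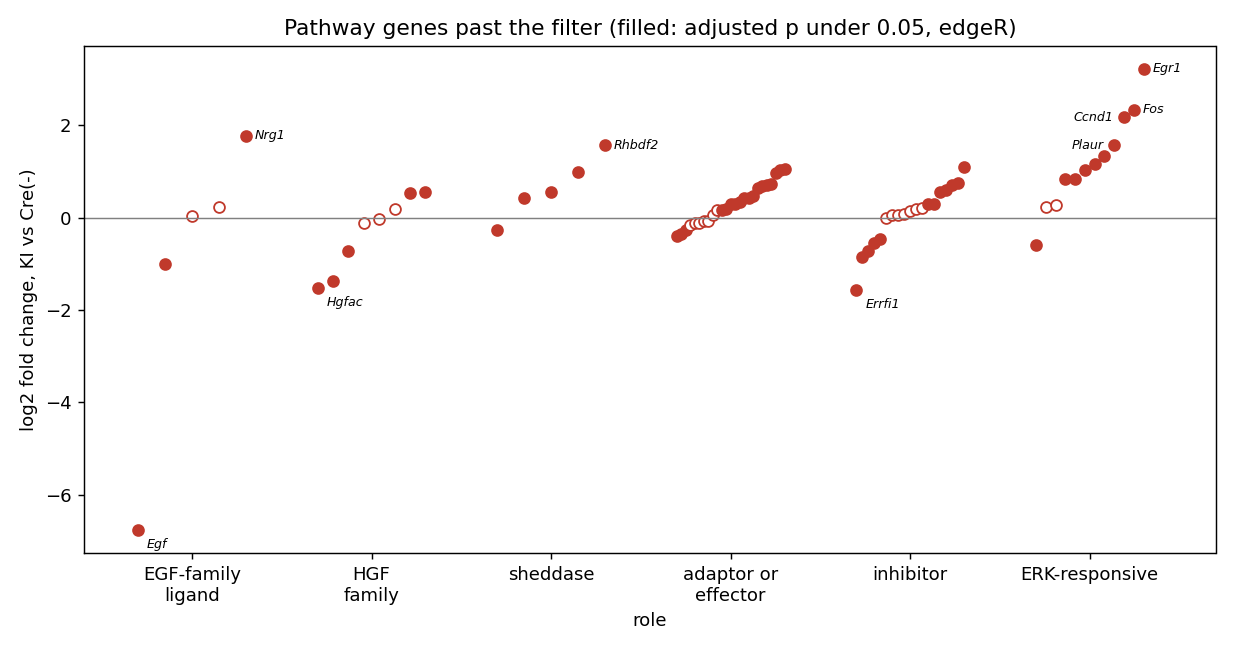
Log2 fold change (TMM scaling, vertical axis) in KI against Cre(-) of the 74 tested pathway genes, each a point placed by role in order of its value and filled where past the threshold. Egf lay lowest at -6.77 and Egr1 highest at 3.22, and Braf, Sos1, Pik3ca and Adam9 changed sign on the TPM scale.

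Egf, the ligand that gave the family its name and a product of distal tubule, stood at 2004, 2022, 2385 and 1869 CPM in Cre(-) and at 19.5, 12.4 and 25.0 CPM in KI. The pathway genes named for KI against Cre(-) were chosen among those past the threshold without overlap. Their lack of overlap follows from that choice. Egf fell 109-fold (log2 fold change -6.77, SE 0.92, adjusted p = 1.18e-05). Nrg1, a ligand of Erbb3 and Erbb4, stood at 10.8, 7.12, 9.33 and 9.22 CPM in Cre(-) and at 36.6, 28.8 and 27.6 CPM in KI. It rose 3.41-fold (log2 fold change 1.77, SE 0.18, adjusted p = 5.62e-07). Among genes around Hgf, the activator Hgfac (-1.52) and the protease Prss8 (-1.37) were lower. Rhbdf2, which controls the sheddase Adam17, was higher (1.56), as was the GTPase Nras (1.05). Of the inhibitors, Errfi1, which binds Egfr and Erbb2, was lower (-1.57) and the ubiquitin ligase Cblc higher (1.09).

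Of the ERK-responsive genes, Egr1 stood at 9.46, 11.9, 11.0 and 8.21 CPM in Cre(-) and at 76.6, 59.7 and 148 CPM in KI. KI replicate 3 was the highest. Egr1 was higher in KI than in Cre(-) (log2 fold change 3.22, SE 0.24, adjusted p = 3.34e-08). Ccnd1 stood at 309, 285, 374 and 289.8 CPM in Cre(-) and at 1672, 1586 and 1013 CPM in KI. KI replicate 3 was here the lowest of the KI libraries and still above all of Cre(-) (log2 fold change 2.18, SE 0.18, adjusted p = 9.92e-08). The other named genes of this role were higher in KI, Fos by 2.33, Plaur by 1.56, Etv5 by 1.34 and Dusp5 by 1.16 on the log2 scale. All 14 named pathway genes kept their direction and their call in each of 16 alternatives. They were chosen for large differences past the threshold in the main fit, which shares libraries with the alternatives. Without KI replicate 3 the log2 fold changes of Egr1, Fos, Errfi1 and Hgfac were 2.74, 1.75, -2.06 and -1.94.

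In Hif1a KO against KI, 6 of the 74 pathway genes passed the threshold (2 higher, 4 lower), in Hif2a KO 1 (lower; 13 at an unadjusted p under 0.05 and 4 by DESeq2), and in DKO 8 (4 higher, 4 lower). These were 8.11%, 1.35% and 10.8% of the list, beside 5.44%, 1.39% and 12.7% of all genes tested. In Hif2a KO, 3262 of all 17011 genes were at an unadjusted p under 0.05 and 1015 passed by DESeq2. Etv5, a transcription factor gene induced by ERK, stood at 55.8, 83.7 and 69.4 CPM in KI, at 21.8, 35.8, 21.0 and 26.0 CPM in Hif1a KO, at 30.9, 32.4 and 30.7 CPM in Hif2a KO and at 34.5, 20.5 and 20.6 CPM in DKO. All KO libraries lay below all KI libraries and around the Cre(-) libraries (30.4, 29.0, 24.7 and 26.1 CPM). The log2 fold changes were -1.41 (adjusted p = 0.00275) in Hif1a KO, -1.15 (adjusted p = 0.0215) in Hif2a KO and -1.46 (adjusted p = 0.00173) in DKO. The Hif1a KO and DKO calls held in all 14 and 13 alternatives. That in Hif2a KO was lost without KI replicate 2 (0.0612) or 3 (0.093) or Hif2a KO replicate 1 (0.0534), 2 (0.071) or 3 (0.063), and on log2(TPM + 0.1) (0.0541) and with only the compared groups in the fit (0.106), with an adjusted p of 7.76e-05 to 0.106 over 13 alternatives. For Hif1a KO against Hif2a KO the edgeR count was 0 of 74 (17 unadjusted, 6 by DESeq2), and for the interaction 0 of 74 (3 unadjusted, 0 by DESeq2). Among all 17011 genes the corresponding unadjusted counts were 2543 and 1013, and those by DESeq2 were 537 and 31.

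Egf stood at 242, 26.8, 136 and 92.4 CPM in Hif1a KO, at 160.4, 16.5 and 27.2 CPM in Hif2a KO and at 69.2, 171 and 107 CPM in DKO. The Hif1a KO and DKO libraries were above all KI libraries, with Hif1a KO replicate 2 barely so, and all were far below Cre(-). Egf was higher in Hif1a KO (2.71 (adjusted p = 0.0489)), a call lost when any of these was left out: KI replicate 1 (0.106), KI replicate 2 (0.145), KI replicate 3 (0.0962), Hif1a KO replicate 1 (0.123), Hif1a KO replicate 3 (0.103) and Hif1a KO replicate 4 (0.0629); it was also lost with a replicate block (0.0845), on log2(TPM + 1) (0.0738), on log2(TPM + 0.1) (0.0731) and with only the compared groups in the fit (0.0807), with 0.00403 to 0.145 over 14 alternatives. In Hif2a KO it overlapped with KI and did not pass (1.84 (adjusted p = 0.203)). In DKO Egf was higher (2.61 (adjusted p = 0.0388)), and the call was lost without KI replicate 1 (0.0794), KI replicate 2 (0.112), KI replicate 3 (0.091), DKO replicate 2 (0.135) and DKO replicate 3 (0.0839), with 0.00725 to 0.135 over 13 alternatives. Btc, another ligand of Egfr and Erbb4, stood at 4.37, 4.09 and 2.97 CPM in KI, at 8.07, 6.13, 8.47 and 6.40 CPM in Hif1a KO, at 5.57, 5.08 and 9.21 CPM in Hif2a KO and at 8.04, 7.96 and 9.42 CPM in DKO. All of these KO libraries were above all KI libraries. The Hif2a KO difference did not pass (0.79 (adjusted p = 0.0918)). In Hif1a KO (0.93 (adjusted p = 0.0274)) the call was lost without KI replicate 2 (0.0674), KI replicate 3 (0.0962), Hif1a KO replicate 1 (0.0693) and Hif1a KO replicate 3 (0.0788); it was also lost on log2(TPM + 1) (0.1), on log2(TPM + 0.1) (0.0872) and with only the compared groups in the fit (0.0626), with 0.00314 to 0.1 over 14 alternatives, and in DKO (1.15 (adjusted p = 0.00744)) it held in all 13.

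Egr1 stood at 43.4, 60.8, 49.4 and 50.8 CPM in Hif1a KO, at 55.5, 53.7 and 44.0 CPM in Hif2a KO and at 51.1, 47.7 and 50.7 CPM in DKO. Hif1a KO replicate 2 was above the lowest KI library, and the Hif2a KO and DKO libraries were all below it. The Hif2a KO difference was as large as that in Hif1a KO but did not pass (-0.89 (adjusted p = 0.0706)), and between these groups the difference was -0.000384 (adjusted p = 1). Egr1 was lower in Hif1a KO (-0.89 (adjusted p = 0.0326)), a call lost without KI replicate 3 (0.136), Hif1a KO replicate 1 (0.0893), Hif1a KO replicate 3 (0.0854) and Hif1a KO replicate 4 (0.0614); it was also lost with a replicate block (0.0961), on log2(TPM + 0.1) (0.0561) and with only the compared groups in the fit (0.133), with 0.00379 to 0.136 over 14 alternatives. Without KI replicate 3 the log2 fold changes of Egr1 were -0.42 in Hif1a KO and -0.45 in DKO. The DKO call (-0.93 (adjusted p = 0.023)) was lost without KI replicate 3 (0.105), DKO replicate 2 (0.0888) and DKO replicate 3 (0.0722); it was also lost on log2(TPM + 1) (0.0558), on log2(TPM + 0.1) (0.0664) and with only the compared groups in the fit (0.12), with 0.00342 to 0.12 over 13 alternatives. Ccnd1, the cyclin D1 gene, stood at 696, 946, 759 and 855 CPM in Hif1a KO, at 918, 1057 and 1220.4 CPM in Hif2a KO and at 965, 634 and 728 CPM in DKO. The Hif1a KO and DKO libraries were all below the lowest KI library, while Hif2a KO replicates 2 and 3 were not. The Hif2a KO difference did not pass (-0.42 (adjusted p = 0.257)). Its Hif1a KO call (-0.81 (adjusted p = 0.0214)) was lost without KI replicate 1 (0.0709), KI replicate 2 (0.0779), Hif1a KO replicate 1 (0.0664) and Hif1a KO replicate 3 (0.0679); it was also lost with a replicate block (0.064) and with only the compared groups in the fit (0.0738), with 0.000569 to 0.0779 over 14 alternatives, and its DKO call (-0.88 (adjusted p = 0.0115)) without DKO replicate 2 (0.0636) and DKO replicate 3 (0.0537); it was also lost with only the compared groups in the fit (0.0769), with 0.000244 to 0.0769 over 13. The remaining genes called were Akt2 (lower in Hif1a KO and DKO), St14 and Socs5 (higher in DKO).

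Markers of kidney cell types moved alongside these genes, and their part in the results was not tested. Of the 62 markers listed, only Lep (adipocyte) was at 0 in any library. In KI against Cre(-), 7 of 7 proximal tubule markers were lower, and their summed level (most abundant gene Slc27a2) went from 5868, 5940.2, 5795 and 5407 TPM to 533, 409 and 545 TPM. Of the thick ascending limb markers 4 of 4 were lower (most abundant Umod), from 1919, 2172, 2458 and 1747 TPM to 858, 488 and 535 TPM. These sums did not overlap between the groups. Of the distal convoluted tubule markers 3 of 3 were lower (most abundant Slc12a3), from 1302, 1415, 1072 and 969 TPM to 144, 98.3 and 117 TPM. Markers of injured tubule rose in 5 of 5 (most abundant Lcn2), from 11.4, 13.7, 16.3 and 12.0 TPM to 449.9, 397 and 812 TPM. KI replicate 3 had the highest of these sums among the KI libraries.

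Macrophage markers rose in 4 of 5 (most abundant Cd68), from 72.3, 67.0, 67.6 and 73.0 TPM in Cre(-) to 1962, 1846 and 1758 TPM in KI, and fibroblast and pericyte markers in 4 of 6 (most abundant Dcn), from 72.7, 64.2, 59.9 and 69.2 TPM to 217, 241 and 239 TPM. Both sums were without overlap. By DESeq2 5 of 5 macrophage markers passed, counted in either direction, and on log2(TPM + 1) 4 were higher and 0 lower. Urothelium markers rose in 5 of 5 (most abundant Upk3a), from 20.3, 16.1, 11.7 and 19.3 TPM to 129, 195 and 23.4 TPM, and T and B lymphocyte markers in 3 of 5 (most abundant Cd79a), from 2.97, 4.33, 3.72 and 3.31 TPM to 11.1, 65.2 and 4.89 TPM. KI replicate 3 was the lowest KI library for both. Adipocyte markers rose in 3 of 5 (most abundant Cfd), from 104, 6.50, 11.8 and 21.9 TPM to 68.5, 2937 and 197 TPM. The marker counts in KI stand beside 60.9% of all genes tested. On log2(TPM + 1), 2 of 5 lymphocyte, 2 of 5 adipocyte, 4 of 5 urothelium and 5 of 6 fibroblast and pericyte markers were higher. KI replicate 2 stood far above all other libraries for adipocyte markers, and without it Hbegf, Tgfa and Erbb4 in KI against Cre(-) had log2 fold changes of 1.96, 1.65 and -2.05. Of the other lists, 4 of 4 podocyte markers (148 to 172 TPM to 36.1 to 59.6 TPM) and 4 of 4 intercalated cell markers (84.3 to 102 TPM to 17.1 to 38.8 TPM) were lower. Principal cell markers were higher in 1 and lower in 3 of 4 (282 to 381 TPM and 297 to 362 TPM), and endothelium markers were lower in 3 of 5 with TMM but higher in 1 of 5 on log2(TPM + 1) (115 to 178 TPM and 142 to 148 TPM).

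In the KO groups against KI, the thick ascending limb markers were higher in 3 of 4 in Hif1a KO (2213, 1200.3, 1760.0 and 1491 TPM), in 1 of 4 in Hif2a KO (1955, 1165 and 1235 TPM) and in 4 of 4 in DKO (1614, 2532 and 2301 TPM). All these sums were above all KI sums. With TMM, the marker counts against KI stand beside 5.44% of all genes tested in Hif1a KO, 1.39% in Hif2a KO and 12.7% in DKO. Proximal tubule markers were higher in 3 of 7 in Hif1a KO (1516, 778, 961 and 869.6 TPM), in 0 of 7 in Hif2a KO by edgeR, with 3 of 7 at an unadjusted p under 0.05 and 1 of 7 by DESeq2 (1303, 583 and 606 TPM) and in 4 of 7 in DKO (856, 1499.8 and 1259 TPM). Again no sum was as low as the highest KI sum. Distal convoluted tubule markers were higher in 1 of 3 in Hif1a KO (408, 177, 242 and 179 TPM), in 0 of 3 in Hif2a KO by edgeR, with 1 of 3 at an unadjusted p under 0.05 and 0 of 3 by DESeq2 (369, 152 and 187 TPM), and in 1 of 3 in DKO (213, 521 and 302 TPM). Here too every sum was above the highest KI sum (144 TPM). Among all 17011 genes in Hif2a KO, 3262 were at an unadjusted p under 0.05 and 1015 passed by DESeq2. In DKO, 2 of 5 injured tubule markers were lower (Sox9 and Vcam1) and 2 of 4 principal cell markers higher (Scnn1g and Aqp2). This was beside 12.7% of all genes. Neither list had a marker past the threshold in Hif1a KO or Hif2a KO. Erbb4 and Egf passed the threshold as higher than in KI in Hif1a KO and DKO but not in Hif2a KO, and Hif1a KO against Hif2a KO itself did not pass for either (0.44 (adjusted p = 0.347) for Erbb4 and 0.87 (adjusted p = 0.594) for Egf). The part of these tubule markers in those results was not tested. The macrophage sums were 959, 1255, 1005 and 1159 TPM in Hif1a KO, 1168, 1411 and 1526 TPM in Hif2a KO and 1208, 813 and 800.3 TPM in DKO. All were below the KI sums, in which Cd68 was the most abundant gene, while of 5 markers 2 were higher and 1 (Cd68) lower in Hif1a KO. On log2(TPM + 1), 1 of 5 was higher and 0 lower in Hif2a KO, and 1 higher and 1 lower in DKO. The median differences of the 5 markers from KI on that scale were 0.31 in Hif1a KO, 0.32 in Hif2a KO and 0.28 in DKO. Fibroblast and pericyte markers (most abundant Dcn) were higher than in KI in 2 of 6 in Hif1a KO (252, 282, 262 and 241 TPM), in 2 of 6 in Hif2a KO (313, 292 and 344 TPM) and in 4 of 6 in DKO (268, 444 and 353 TPM). These sums were above all KI and Cre(-) sums, though in Hif1a KO replicate 4 barely above KI replicate 2. Hgf was higher than in Cre(-) in these groups on the TPM scales, and the part of these markers in that result was not tested.

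The genes whose pattern was most like that of a member were found by the root mean square (RMS) difference of log2 CPM, each gene centred on its own mean, over the 17 libraries among 13755 protein-coding genes. For Tgfa these were Prrg1 (RMS 0.160) and Fam129b (0.165), and for Hbegf Ikbke (0.199) and Homer3 (0.201). Those nearest to Erbb4 were Tfap2b (0.240) and Cyfip2 (0.241), beside an SD of Erbb4 itself of 0.761. For Met they were Impad1 (0.0844) and, next, Siae, for Egfr Tnfaip1 (0.0953) and Kpnb1 (0.101), and for Erbb2 Anks3 (0.0801) and Sestd1 (0.0803), beside SDs of the 3 receptors of 0.171, 0.174 and 0.162. Erbb3 was nearest to Lmbr1l (0.199) and Dhx40 (0.217), Hgf to Zfp61 (0.216) and Pfkfb4 (0.218), and Areg to Spsb1 (0.452) and Arhgef37 (0.452).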

How the data were processed

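RNA from whole kidneys of 17 mice (5 genotype groups of 3 or 4) was sequenced, and the authors, by their processing notes, trimmed reads with Trim Galore 0.6.6 (cutadapt 2.5) and aligned them with STAR 2.7.9a. The deposited files hold estimated counts (expected counts per transcript, as RSEM gives them). The other deposited file holds TPM per transcript, also computed by the authors. The study's methods name hg38 or GRCm38, while the transcript IDs in the files are those of mouse, so GRCm38 with GENCODE M21 was used here: 116770 of 119353 transcripts (97.8%) were matched and summed to 35971 genes, and 2583 without a match were left out.

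Counts were rounded, filtered (edgeR filterByExpr, minimum count 10), scaled by TMM and tested with the quasi-likelihood test of edgeR 4.0.16 in R 4.3.3, in 1 fit with a coefficient per group, with Benjamini-Hochberg adjustment over the 17011 genes tested and a threshold of 0.05. Libraries of the same number in different groups are different mice and were not paired. The p-values measure spread between mice. Levels are CPM on TMM-scaled libraries, and TPM where genes are compared. All sample columns were used, and the method was tested on simulated data.

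Alternatives were DESeq2 1.42.0, its size factors in edgeR, no filter, a replicate block, limma 3.58.1 on log2(TPM + 1) and log2(TPM + 0.1), only the groups compared, either pair of Cre(-) libraries, and leaving out each library. The same alternatives for named pathway genes were chosen after seeing the data. Sums, tables and plots used Python 3.11.15, numpy 2.4.6, pandas 2.3.3 and matplotlib 3.10.9.

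The 10 genes and the lists of pathway genes and markers were chosen with earlier results of these data known. Named were all 10 members; from the pathway list, in KI against Cre(-) the 14 genes with the largest absolute log2 fold change past the threshold, without overlap, and with 1 TPM or more on average in KI or Cre(-); in other comparisons up to 5 past the threshold with the largest absolute log2 fold change; and for each tested member the 2 protein-coding genes with a mean TPM of at least 1 nearest in log2 CPM (prior count 2). Genes named because a count was small or a sign flipped (Akt2, St14, Socs5, Braf, Sos1, Pik3ca and Adam9) were chosen after their values were seen.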

Additional observations from a re-analysis of the deposited data

Results flagged for a closer look

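In groups of 4 libraries, a library was picked out where its gap to the nearest other library was a larger share of the group's range than Dixon's 95% critical value. Chance flags about 1 in 20 groups, and 5 of 80 groups tested were picked out. Tgfa in Hif1a KO replicate 1 was the lowest of its group at 21.5 CPM (gap 0.834 of the range). Ereg in Cre(-) replicate 2 was the highest of its group at 0.107 CPM (gap 0.877), which is 2 counts against 1 in each of the others. Dusp5 in Cre(-) replicate 1 was the highest at 2.88 CPM (gap 0.845). The adipocyte marker sum was highest in Cre(-) replicate 1 at 104 TPM (gap 0.842) and in Hif1a KO replicate 2 at 410.2 TPM (gap 0.864). Groups of 3 libraries, KI among them, were not tested this way.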

How the results depend on the processing

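Among single genes, 1555 results stayed on the same side of the threshold under an alternative, 88 no longer passed, 18 newly passed, and 14 changed sign where the result passed in the main fit or in the alternative. Those 14 were on the 2 TPM scales, log2(TPM + 1) and log2(TPM + 0.1), where the median of all genes lies higher. Others changed sign without passing in either, 15 on the TPM scales and 14 with a library left out. With a library left out, Erbb3 went from -0.162 to 0.0954 and 0.115 in KI against Cre(-) without KI replicates 1 and 2, and without KI replicate 3 from -0.346 to 0.400 in Hif2a KO and from -0.290 to 0.456 in DKO against KI. Met read 0.0863 and 0.0879 in KI against Cre(-), 0.360 and 0.367 in Hif2a KO against Cre(-), and 0.492 and 0.501 in DKO against Cre(-). Erbb2 read 0.0397 and 0.0413 in KI, 0.140 and 0.146 in Hif1a KO, 0.242 and 0.252 in Hif2a KO, and 0.294 and 0.306 in DKO against Cre(-).

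Of the counts of genes and members called, 166 stayed within 1.5 times the reported count and 42 did not. The members called in Hif1a KO against KI were 1 with only the groups compared (fewer libraries) and 1 to 2 with a library left out. Those in DKO against Cre(-) were 3 with Cre(-) replicates 3 and 4 as the only controls, beside 8510 of 17254 genes. With a library left out they were 4 to 6, beside 8705 to 9611 of all genes. All genes called in Hif1a KO against KI were 1665 by DESeq2, 552 on log2(TPM + 0.1), 246 with only the groups compared, and 273 to 1169 with a library left out. For Hif2a KO against KI they were 1015, 83, 2, and 13 to 857. For DKO against KI they were 1028 with only the groups compared and 722 to 2291 with a library left out. For Hif1a KO against Hif2a KO they were 537 by DESeq2, 29 on log2(TPM + 1), 27 on log2(TPM + 0.1), 132 with only the groups compared, and 1 to 193 with a library left out. In fits with fewer libraries some of these counts fell and others rose, and the cause was not tested.

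With a replicate block, as if libraries of 1 number were paired, 479 genes were called in Hif1a KO against KI, 76 in Hif2a KO against KI and 19 in Hif1a KO against Hif2a KO. The pairing was checked: of 31 pairs of libraries with the same number, 4 had a correlation of residuals over 0.1 (range -0.223 to 0.249, median -0.034, beside a median of 0.012 for the other 84 pairs), so no block was used. Depth limits Areg and Ereg, with 2 and 5 counts in the 4 Cre(-) libraries.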
